A study of Homo sapiens with 2 samples.

Results

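STK11, KEAP1, NFE2L2, SMARCA4, SMARCA2, ARID1A and NF1 are described here across 5 human lung adenocarcinoma lines, by the RNA of each gene and by the open chromatin around its starts. The 7 genes were taken by symbol from a joint RNA and chromatin matrix of 36601 genes. The regions are all 56 of its 187920 peaks that lie within 2 kb of the span of starts listed for one of these genes. The lines were A549, H838, H1975, H2228 and HCC827, which are established lines, each grown separately with no treatment, frozen, mixed in equal parts and captured together. The values come from 1 RNA library and 1 ATAC library, made from the same barcodes of the 80% fraction of that capture. There is no control line and no replicate, so no test was made, and each interval is an exact Poisson interval at 95% that covers counting error only.

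STK11 encodes LKB1, a kinase that activates AMPK and related kinases. KEAP1 is the adaptor through which a CUL3 ubiquitin ligase destroys NRF2, the product of NFE2L2, and NRF2 in turn drives genes of glutathione, NADPH and detoxification. SMARCA4 and SMARCA2 encode BRG1 and BRM, the alternative ATPases of the SWI/SNF (BAF) chromatin remodeller, and ARID1A is a DNA-binding subunit of the same complex. NF1 encodes neurofibromin, a GTPase-activating protein that turns RAS off. All of these are recurrently mutated or silenced in lung adenocarcinoma, and A549 is known to carry inactivating mutations of STK11, KEAP1 and SMARCA4. Such mutations were not read here: the values below are amounts of RNA and of open chromatin, and the part of mutations in them was not tested.

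The submitted data carry no line label per barcode. A barcode was given to a line where its cluster by ATAC and a call from the UMIs of 46 marker genes were the same. The marker call also had to lead the next best by at least 3 natural log units. Both held for 2399 of 2741 clustered barcodes. Of 3298 barcodes in the matrix, 494 had been removed by filters and 63 as likely doublets. The A549-like line had 744 barcodes, and each of the 7 A549 markers peaked there (ALDH1A1 at 2905 CPM, its UMIs scaled to a total of 1000000 UMIs per line). The HCC827-like line had 424 barcodes, with EGFR at 8087 CPM and 5 of its 6 markers highest. The other lines are called by a leading gene: the S100A9 line (303 barcodes), the SLC30A8 line (568) and the DHRS2 line (360). Of the H2228 markers, LCN2, CD74, SAA1 and SAA2 were highest in the S100A9 line, but ALK was at 14.9 CPM there and at 15.4 CPM in the HCC827-like line, so that line was not named.

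The lines differed in depth and RNA quality. Summed UMIs ranged between 4527070 in the A549-like line and 15513515 in the DHRS2 line, and summed peak counts between 8202778 in the HCC827-like line and 30114960 in the DHRS2 line. The median share of mitochondrial UMIs was 9.43% in the S100A9 line, 13.8% in the HCC827-like line and 12.1% in the DHRS2 line, but 0.424% in the A549-like line and 0.420% in the SLC30A8 line. The DHRS2 line is also uncertain in its barcodes. Its markers and its ATAC cluster placed 374 barcodes in it, of which 360 met the margin of the marker call and were used. Of the 374, 170 had RNA that clustered with the S100A9 line, and the reason was not tested. LCN2, the strongest marker of the S100A9 line, was at 2376 CPM in the DHRS2 line, and at 226 CPM when only the 240 barcodes with the same RNA and ATAC cluster were used. Those 240 also differ in quality: 111 of them lay under 3% mitochondrial UMIs, against 92 of the 360 in that selection's main counterpart. NF1 had 8048 UMIs in the main DHRS2 line and 1783 in that selection, so most of the RNA behind its main value came from other barcodes. The main DHRS2 values also enter the mean against which each other line is set. Values from that selection, called the same-cluster selection below and added after the data were seen, are given beside the main ones for the results named, and other values of the DHRS2 line can differ in it too. Outside the S100A9 and DHRS2 lines LCN2 was still at 308 to 631 CPM, and whether this is free RNA in the droplets was not tested.

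The promoters of the 5 genes on which most of the results turn are shown first, to set the letters beside the peaks. RefSeq (GRCh38.p14) held 13 windows for the 7 genes, each 250 bases before and 50 bases after a start. Capitals mark, on either strand, the GC box GGGCGG, the CCAAT box CCAAT, an NRF1-type match (GCGC, any base, then TGCGC), an ETS match CCGGAAGT and the antioxidant response element TGACNNNGC, the element that NRF2 binds. The E-box CACGTG and the TATA box TATAAA were searched too, and no marked match below overlaps another. KEAP1 is shown at its second start because its strongest peak covers that start.
STK11 (chr19:1205528-1205827, forward strand): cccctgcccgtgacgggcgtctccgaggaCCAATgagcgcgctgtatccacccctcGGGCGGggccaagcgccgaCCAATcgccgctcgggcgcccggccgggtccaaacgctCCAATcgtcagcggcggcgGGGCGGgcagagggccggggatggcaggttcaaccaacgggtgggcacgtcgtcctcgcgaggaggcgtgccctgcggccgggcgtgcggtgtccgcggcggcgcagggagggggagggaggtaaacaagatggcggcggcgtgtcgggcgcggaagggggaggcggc
KEAP1 second start (chr19:10502722-10503021, reverse strand): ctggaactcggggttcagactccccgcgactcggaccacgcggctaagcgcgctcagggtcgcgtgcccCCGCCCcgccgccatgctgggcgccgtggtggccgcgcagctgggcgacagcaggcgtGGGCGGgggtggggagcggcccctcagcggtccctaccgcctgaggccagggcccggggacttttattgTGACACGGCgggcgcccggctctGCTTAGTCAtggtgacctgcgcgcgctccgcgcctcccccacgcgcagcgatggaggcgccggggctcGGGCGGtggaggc
SMARCA4 (chr19:10960780-10961079, forward strand): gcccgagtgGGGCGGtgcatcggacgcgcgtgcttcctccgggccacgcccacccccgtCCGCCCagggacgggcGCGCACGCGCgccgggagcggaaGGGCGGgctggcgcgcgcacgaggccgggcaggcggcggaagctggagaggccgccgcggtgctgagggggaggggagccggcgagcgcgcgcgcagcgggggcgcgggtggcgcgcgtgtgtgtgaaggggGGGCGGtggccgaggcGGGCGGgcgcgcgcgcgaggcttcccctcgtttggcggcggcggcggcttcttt
SMARCA2 (chr9:2015097-2015396, forward strand): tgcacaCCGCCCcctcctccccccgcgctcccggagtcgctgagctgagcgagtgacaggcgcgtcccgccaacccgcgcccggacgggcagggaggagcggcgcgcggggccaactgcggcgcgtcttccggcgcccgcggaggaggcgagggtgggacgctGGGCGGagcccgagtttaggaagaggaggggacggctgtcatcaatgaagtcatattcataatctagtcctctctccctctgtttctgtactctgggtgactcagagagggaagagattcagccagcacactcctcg
NF1 (chr17:31094727-31095026, forward strand): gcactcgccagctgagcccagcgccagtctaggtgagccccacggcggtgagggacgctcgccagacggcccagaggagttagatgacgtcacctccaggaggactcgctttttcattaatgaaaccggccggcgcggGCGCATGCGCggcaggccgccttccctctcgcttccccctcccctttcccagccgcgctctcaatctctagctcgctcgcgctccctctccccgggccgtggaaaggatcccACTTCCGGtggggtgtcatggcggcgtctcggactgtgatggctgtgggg

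STK11 held 3 CCAAT boxes and 2 GC boxes, and the second KEAP1 start held 2 antioxidant response elements and 3 GC boxes. SMARCA4 held 5 GC boxes and 1 NRF1-type match, where its paralogue SMARCA2 held 2 GC boxes, and NF1 held 1 NRF1-type and 1 ETS match with no GC box. None of these 5 windows had the letters of an E-box or a TATA box. Over 35116 promoters of the same length the GC box was found in 45.0%, the CCAAT box in 34.6%, the NRF1-type match in 5.78%, the ETS match in 4.14%, the antioxidant response element in 13.3%, the E-box in 7.26% and the TATA box in 11.5%. At their first start the 7 genes held between 29 CpG dinucleotides (NF1) and 55 (SMARCA4), against a median of 14 over all promoters, and 24.2% of all promoters held 29 or more. The matches are descriptions of letters, not of binding.

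UMIs of all 7 genes were counted in all 5 lines. The lowest count was 68 UMIs, for STK11 in the A549-like line, and the part of free RNA in such low levels was not tested. Of the 35 pairs of a gene and a line, 2 were at least 2-fold higher than the mean of the other 4 lines, against 9.1% of pairs over all 20377 genes measured, and 3 were at least 2-fold lower, against 16.5%. Among genes at least as high on average as the lowest of the 7, the shares were 7.88% higher and 14.7% lower. The counts of the 7 genes were not above these shares. The pairs were STK11 (higher) in the S100A9 line, ARID1A (higher) in the SLC30A8 line, STK11 and KEAP1 (both lower) in the HCC827-like line and SMARCA4 (lower) in the A549-like line. Ratios were taken on CPM + 1, as log2.

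**Figure D1:**
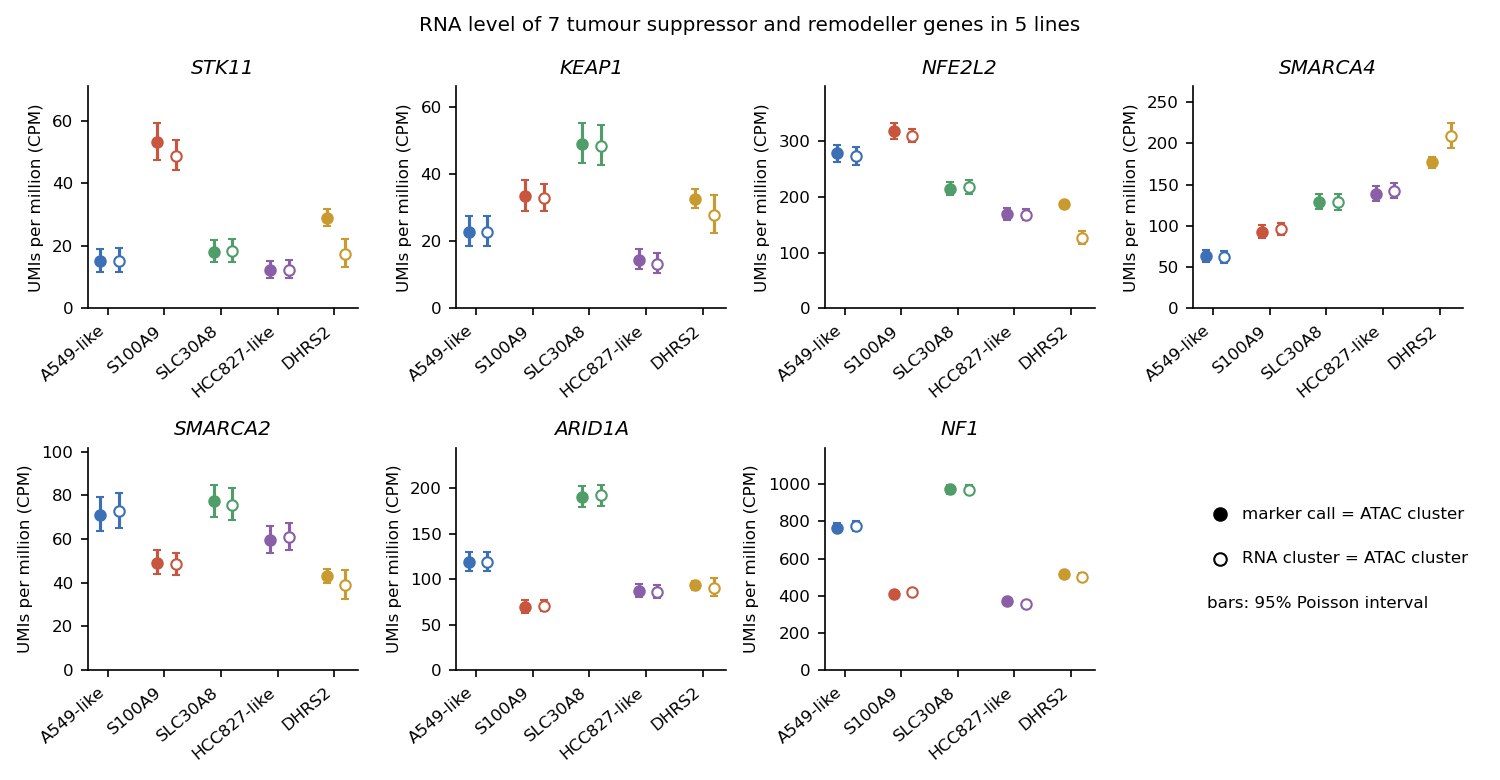
RNA of the 7 genes (CPM, y axis) in the 5 lines (x axis), with filled points for the main assignment, open points for barcodes whose RNA and ATAC clusters are the same, and bars for the 95% Poisson interval. STK11 stood highest in the S100A9 line at 53.3 CPM, SMARCA4 lowest in the A549-like line at 63.0 CPM, and open and filled points lay apart mainly in the DHRS2 line, where NFE2L2 was at 126 CPM in the same-cluster selection and at 186 CPM in the main one.

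STK11, the LKB1 kinase gene, was highest in the S100A9 line. It stood at 53.3 CPM there (47.6 to 59.4), against 28.9 CPM in the DHRS2 line, 18.1 CPM in the SLC30A8 line, 15.0 CPM in the A549-like line and 12.2 CPM in the HCC827-like line. The log2 ratio of the S100A9 line over the others was 1.47, and it lay between 1.17 and 2.32 in the 15 alternatives, past 2-fold in each. In the order of the levels, the intervals of the SLC30A8 and A549-like lines overlapped, as did those of the A549-like and HCC827-like lines. In the same-cluster selection the DHRS2 line fell in with these 3 at 17.4 CPM (13.3 to 22.3), so that the S100A9 line alone stood apart. STK11 was also low in the HCC827-like line, at a log2 ratio of -1.18, which was -0.96 in the same-cluster selection and under 2-fold in 5 of the 15 alternatives. The order of the A549-like and HCC827-like lines turned in the ranges of mitochondrial UMIs given further on.

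KEAP1, the adaptor that marks NRF2 for destruction, was lowest in the HCC827-like line. It was at 14.4 CPM there (11.6 to 17.7), against 49.0 CPM in the SLC30A8 line, 33.3 CPM in the S100A9 line, 32.6 CPM in the DHRS2 line and 22.8 CPM in the A549-like line. The log2 ratio of the HCC827-like line over the others was -1.20, and it was under 2-fold in 4 of the 15 alternatives, the smallest being -0.93. The intervals of the S100A9 and DHRS2 lines overlapped and all other neighbours in the order lay apart. The highest level, in the SLC30A8 line, was 3.40 times the lowest.

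NFE2L2, the NRF2 gene, differed less between the lines. It was at 318 CPM in the S100A9 line (304 to 332), 278 CPM in the A549-like line, 215 CPM in the SLC30A8 line, 186 CPM in the DHRS2 line and 169 CPM in the HCC827-like line, a range of 1.88-fold. No neighbouring intervals overlapped, and no line reached 2-fold against the others. In the same-cluster selection the DHRS2 line was lowest, at 126 CPM (115 to 138), and the range became 2.46-fold. KEAP1 and NFE2L2, inhibitor and target of one axis, were both lowest in the HCC827-like line in the main assignment.

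SMARCA4 and SMARCA2, the paired ATPases, had different orders of lines. SMARCA4 was at 63.0 CPM in the A549-like line (55.9 to 70.7), against 177 CPM in the DHRS2 line, 139 CPM in the HCC827-like line, 129 CPM in the SLC30A8 line and 92.8 CPM in the S100A9 line. The log2 ratio of the A549-like line over the others was -1.08, which was -0.96 with the marker call alone and past 2-fold in every other alternative. Only the HCC827-like and SLC30A8 lines overlapped. In the same-cluster selection SMARCA4 reached 209 CPM in the DHRS2 line (194 to 225), and the ratio of the A549-like line was -1.21.

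SMARCA2 had the smallest range of the 7 genes, 1.80-fold in the main assignment. It was at 77.2 CPM in the SLC30A8 line (70.1 to 84.9), 71.1 CPM in the A549-like line (63.6 to 79.3), 59.4 CPM in the HCC827-like line, 49.2 CPM in the S100A9 line and 43.0 CPM in the DHRS2 line (39.8 to 46.4). Every pair of neighbours in that order overlapped, and only lines further apart in it were separated. The DHRS2 line, highest in SMARCA4, was lowest in SMARCA2, and the A549-like line, lowest in SMARCA4, was second highest in SMARCA2.

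ARID1A, the BAF subunit, was highest in the SLC30A8 line. It was at 191 CPM there (180 to 203), against 119 CPM in the A549-like line, 93.1 CPM in the DHRS2 line, 87.4 CPM in the HCC827-like line and 69.6 CPM in the S100A9 line. The log2 ratio of the SLC30A8 line over the others was 1.04, close to the threshold, and it fell under 2-fold in 7 of the 15 alternatives, among them scaling by trimmed means (TMM) at 0.89. The intervals of the DHRS2 and HCC827-like lines overlapped.

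NF1, the RAS-inactivating gene, followed nearly the same order. It was at 972 CPM in the SLC30A8 line (947 to 999), 767 CPM in the A549-like line, 519 CPM in the DHRS2 line, 410 CPM in the S100A9 line and 369 CPM in the HCC827-like line, with no overlap between neighbours and a range of 2.63-fold. The ratio reached 2-fold in no line, the largest log2 values being 0.91 in the SLC30A8 line and -0.85 in the HCC827-like line. Other loci hold partial copies of NF1 and short genes lie inside its introns on the other strand, so its counts are uncertain to that extent. Of the 21 pairs of these 7 genes, ARID1A and NF1 had the most alike profiles, at a distance of 0.46 between centred log2(CPM + 1) values over the 5 lines, and STK11 and ARID1A the least alike, at 2.38.

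Since the lines differed in mitochondrial UMIs, the levels were also taken within barcodes under 3% and within barcodes of 3% to 20%, in the same-cluster selection. Under 3%, STK11 was at 60.0 CPM in the S100A9 line, from 52 barcodes and 22 UMIs, against 16.4 to 31.1 CPM in the other 4 lines, and its interval overlapped those of the DHRS2 and HCC827-like lines. From 3% to 20% it was at 48.4 CPM in the S100A9 line, against 11.3 to 14.0 CPM in the others. The A549-like line had the lowest STK11 value in both ranges, at 16.4 and 11.3 CPM, against 20.5 and 11.8 CPM in the HCC827-like line, with overlapping intervals. SMARCA4 was lowest in the A549-like line in both ranges, at 64.8 and 52.7 CPM, and ARID1A and NF1 were highest in the SLC30A8 line in both, ARID1A at 215 and 169 CPM and NF1 at 1086 and 858 CPM. KEAP1 was the exception: from 3% to 20% it was lowest in the A549-like line, at 7.53 CPM from 8 UMIs, and stood at 13.3 CPM in the HCC827-like line, with overlapping intervals. SMARCA2 was highest in the HCC827-like line under 3%, at 102 CPM, and in the SLC30A8 line from 3% to 20%, at 67.7 CPM, but in each range the highest interval overlapped that of the next line.

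**Figure D2:**
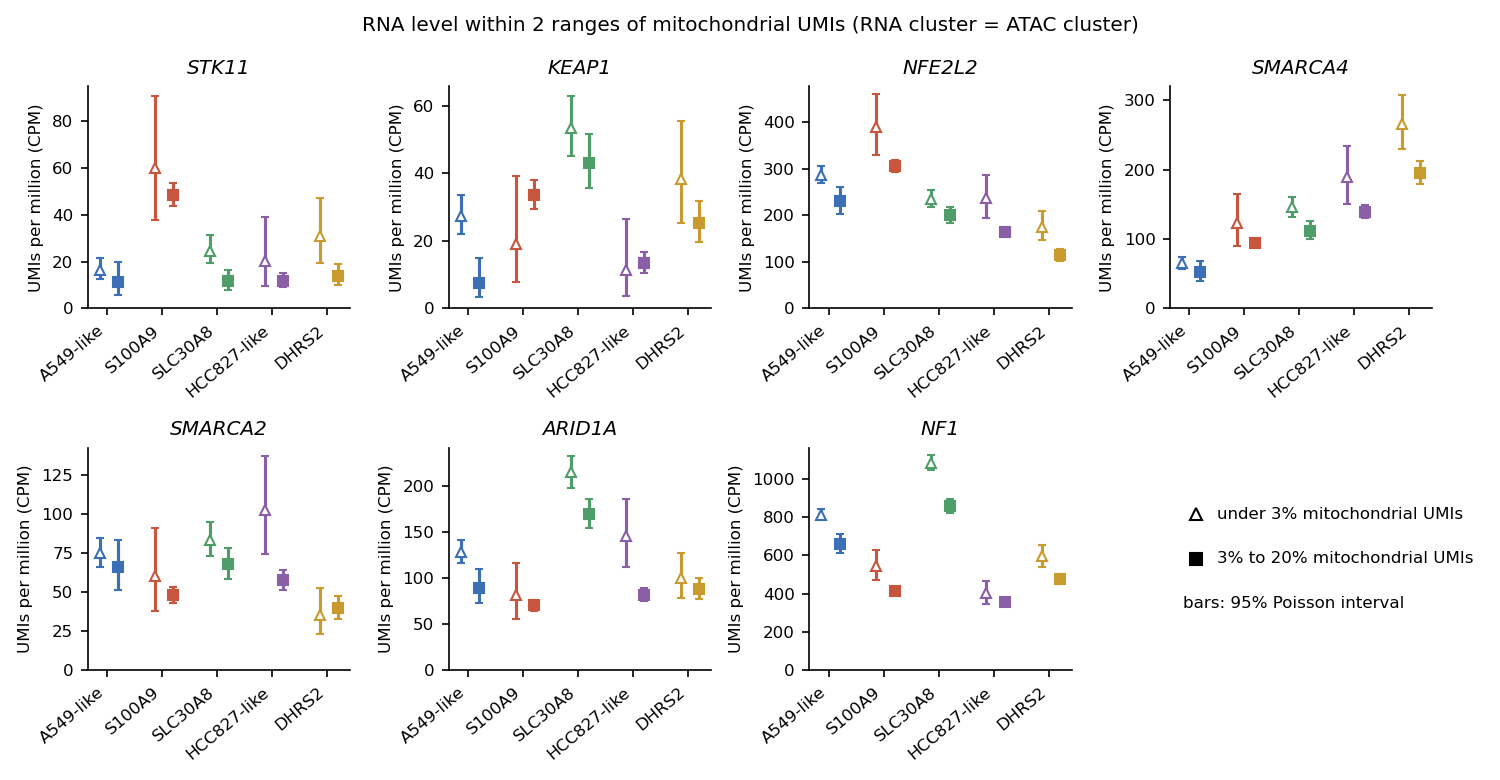
RNA of the 7 genes (CPM, y axis) in the 5 lines (x axis) within barcodes under 3% (open triangles) and of 3% to 20% (filled squares) mitochondrial UMIs, with 95% Poisson intervals, for barcodes whose RNA and ATAC clusters are the same. The high STK11 of the S100A9 line (60.0 and 48.4 CPM) and the low SMARCA4 of the A549-like line (64.8 and 52.7 CPM) were seen in both ranges.

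Of the 56 peaks near the 7 genes, 33 had at least 100 counts and were measured: 2 of 2 for STK11, 2 of 2 for KEAP1, 10 of 19 for NFE2L2, 2 of 6 for SMARCA4, 4 of 11 for SMARCA2, 7 of 8 for ARID1A and 6 of 8 for NF1. Peaks are numbered along the chromosome, and a peak value in CPM is its counts scaled in the same way to the peak counts of the line. Of 165 pairs of a measured peak and a line, 11 were at least 2-fold higher than the other 4 lines, against 8.18% of pairs over all peaks within 2 kb of any gene's starts, and 19 were at least 2-fold lower, against 15.2%. In the same-cluster selection the counts were 17 higher, against 9.26% of pairs over all such peaks in that selection, and 21 lower, against 17.4%. In the main assignment the pairs came from 12 peaks, of which 4 were near NFE2L2, 3 near ARID1A and 5 near NF1. No measured peak of STK11, KEAP1, SMARCA4 or SMARCA2 reached 2-fold in a line there, and of the peaks at the starts only that of NF1 did. The DHRS2 line passed 2-fold in the same-cluster selection at STK11 peak 2 (12.2 CPM, a log2 ratio of 1.38) and KEAP1 peak 2 (11.3 CPM, 1.33), and at the SMARCA2 start (-1.40). In that selection the A549-like line was also 2-fold lower at STK11 peak 2 (-1.12). At SMARCA2 peak 10 the SLC30A8 line was 2-fold higher there, at 9.70 CPM, and the DHRS2 line 2-fold lower, at 1.66 CPM.

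**Figure D3:**
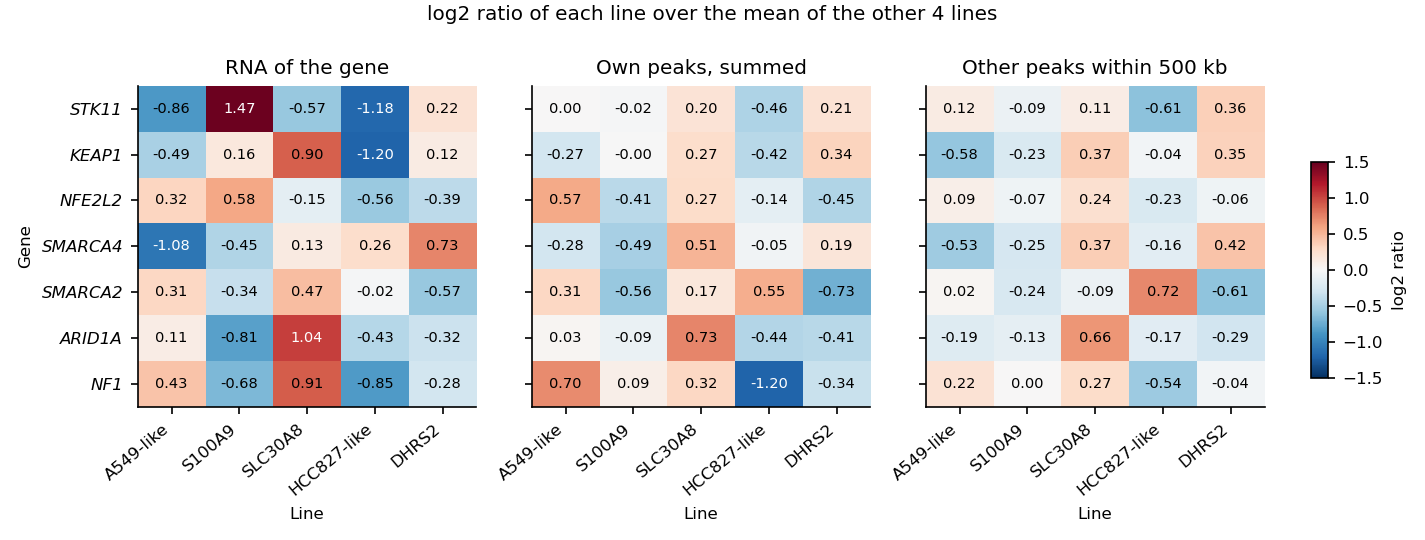
Log2 ratio of each line over the mean of the other 4 lines (number and colour in each cell) for the RNA of the 7 genes (rows), their own peaks summed, and all other peaks within 500 kb. STK11 RNA was at 1.47 in the S100A9 line where its summed peaks were at -0.02, while NF1 RNA and peaks in the HCC827-like line were at -0.85 and -1.20.

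At the STK11 start (peak 1, chr19:1205200-1206109), which covers the promoter printed above, accessibility hardly followed the RNA. It was 42.9 CPM in the S100A9 line (38.4 to 47.8), against 50.0 CPM in the SLC30A8 line, 46.8 CPM in the A549-like line, 46.8 CPM in the DHRS2 line and 34.1 CPM in the HCC827-like line. The highest was 1.46 times the lowest, where the RNA ranged over 4.37-fold. The HCC827-like line was lowest in both readouts, though its peak interval overlapped that of the S100A9 line. The DHRS2 line was highest in the same-cluster selection, at 55.7 CPM. KEAP1 behaved much the same: its main peak (chr19:10502379-10503196), which covers the second start with its antioxidant response elements, was at 36.6 CPM in the HCC827-like line, against 56.6 CPM in the SLC30A8 line, 53.7 CPM in the DHRS2 line, 45.5 CPM in the S100A9 line and 39.2 CPM in the A549-like line. The highest was 1.55 times the lowest, where the RNA ranged over 3.40-fold. At that peak the DHRS2 line was highest in the same-cluster selection, at 69.7 CPM, and not the SLC30A8 line, which was highest in KEAP1 RNA, and the range was 1.91-fold.

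The NFE2L2 start (peak 2, chr2:177264492-177265304) was at 58.7 CPM in the A549-like line, 46.3 CPM in the SLC30A8 line, 33.9 CPM in the HCC827-like line, 28.8 CPM in the DHRS2 line and 24.6 CPM in the S100A9 line. The intervals of the DHRS2 and S100A9 lines overlapped, and in the same-cluster selection they stood at 25.5 and 25.7 CPM. Another gene, AC079305.1, starts within 1 kb of that peak. Upstream, peak 3 (chr2:177266204-177267048), centred 1898 bases before the start, was far higher in the A549-like line, at 21.3 CPM, against 5.55 CPM in the SLC30A8 line, 5.03 CPM in the S100A9 line, 3.54 CPM in the HCC827-like line and 2.06 CPM in the DHRS2 line. That log2 ratio of 2.14 was the largest of the 33 peaks in any line, and it lay between 2.01 and 2.67 in the 15 alternatives.

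The listed starts of NFE2L2 reach far upstream of RefSeq's, and several small peaks there split the lines in other ways. Peak 16 (chr2:177337913-177338787), centred 73622 bases before the RefSeq start, was at 13.3 CPM in the HCC827-like line, 10.5 CPM in the S100A9 line and 8.33 CPM in the DHRS2 line, but at 1.86 CPM in the A549-like line and 1.35 CPM in the SLC30A8 line. Peaks 6 and 12 showed the opposite split, with 3.76 and 2.83 CPM in the A549-like line and 3.28 and 2.69 CPM in the SLC30A8 line, and between 0.0654 and 0.498 CPM (peak 6) and between 0.131 and 0.488 CPM (peak 12) in the other 3 lines. Peak 12 had 109 counts in all, and its ratio in the A549-like line, 1.00 as log2, was under 2-fold or turned over in 4 of the 15 alternatives. That of peak 6 in the A549-like line was under 2-fold in 2 of them. Peak 19, at the far end, also covers starts of AGPS and AC019080.1, and was at 20.3 to 34.5 CPM in the 5 lines.

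SMARCA4 peak 1 (chr19:10960421-10961321), at the start, was at 64.0 CPM in the A549-like line, against 95.6 CPM in the SLC30A8 line, 79.4 CPM in the DHRS2 line, 72.4 CPM in the HCC827-like line and 54.2 CPM in the S100A9 line. The A549-like line, lowest in SMARCA4 RNA, was therefore second lowest here. In the same-cluster selection the DHRS2 line reached 102 CPM, the highest, as for the RNA. SMARCA2 peak 1 (chr9:2014733-2015626) was at 57.8 CPM in the HCC827-like line, 39.9 CPM in the A549-like line, 35.8 CPM in the SLC30A8 line, 28.5 CPM in the S100A9 line and 24.9 CPM in the DHRS2 line. The DHRS2 line was lowest in both SMARCA2 readouts, and its peak was at 15.0 CPM in the same-cluster selection. Peak 10 of SMARCA2, over 2 internal RefSeq starts that give shorter transcripts, was at 9.67 CPM in the SLC30A8 line and at 3.42 to 6.22 CPM in the others.

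ARID1A peaks 1 to 4, from 3587 bases before its start to 2223 bases after it, were all highest in the SLC30A8 line, as the RNA was. Peak 3 (chr1:26695288-26696161), at the start, was at 58.3 CPM in the SLC30A8 line, 43.9 CPM in the A549-like line, 31.7 CPM in the S100A9 line, 31.2 CPM in the HCC827-like line and 28.4 CPM in the DHRS2 line. Peak 4 reached 20.9 CPM in the SLC30A8 line, against 7.11 to 9.61 CPM in the others. Further in, the order changed: peak 7 (chr1:26723246-26724139), 27677 bases after the start, was at 16.1 CPM in the S100A9 line, 10.2 CPM in the SLC30A8 line and 9.73 CPM in the DHRS2 line, but at 1.95 CPM in the HCC827-like line and 1.39 CPM in the A549-like line. The S100A9 line had the highest value of that peak and the lowest ARID1A RNA.

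NF1 peak 1 (chr17:31094474-31095321), over the promoter printed above, varied most among the peaks at the 7 starts in the main assignment, at 3.58-fold. In the same-cluster selection it ranged over 3.92-fold, and SMARCA2 peak 1 over 3.99-fold. In the main assignment NF1 peak 1 was at 62.8 CPM in the A549-like line (58.2 to 67.8), 41.5 CPM in the SLC30A8 line, 28.8 CPM in the S100A9 line, 27.3 CPM in the DHRS2 line and 17.6 CPM in the HCC827-like line. The log2 ratio over the other lines was 1.10 in the A549-like line and -1.15 in the HCC827-like line, and each was under 2-fold in 2 of the 15 alternatives. The HCC827-like line was lowest in both NF1 readouts, while the highest RNA was in the SLC30A8 line. Within the gene, peak 3 was at 9.87 CPM in the S100A9 line, against 0.673 to 3.95 CPM in the others, and peak 4 at 6.73 CPM in the SLC30A8 line, against 0.392 to 1.86 CPM in the others. Peak 4 had 148 counts in all.

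**Figure D4:**
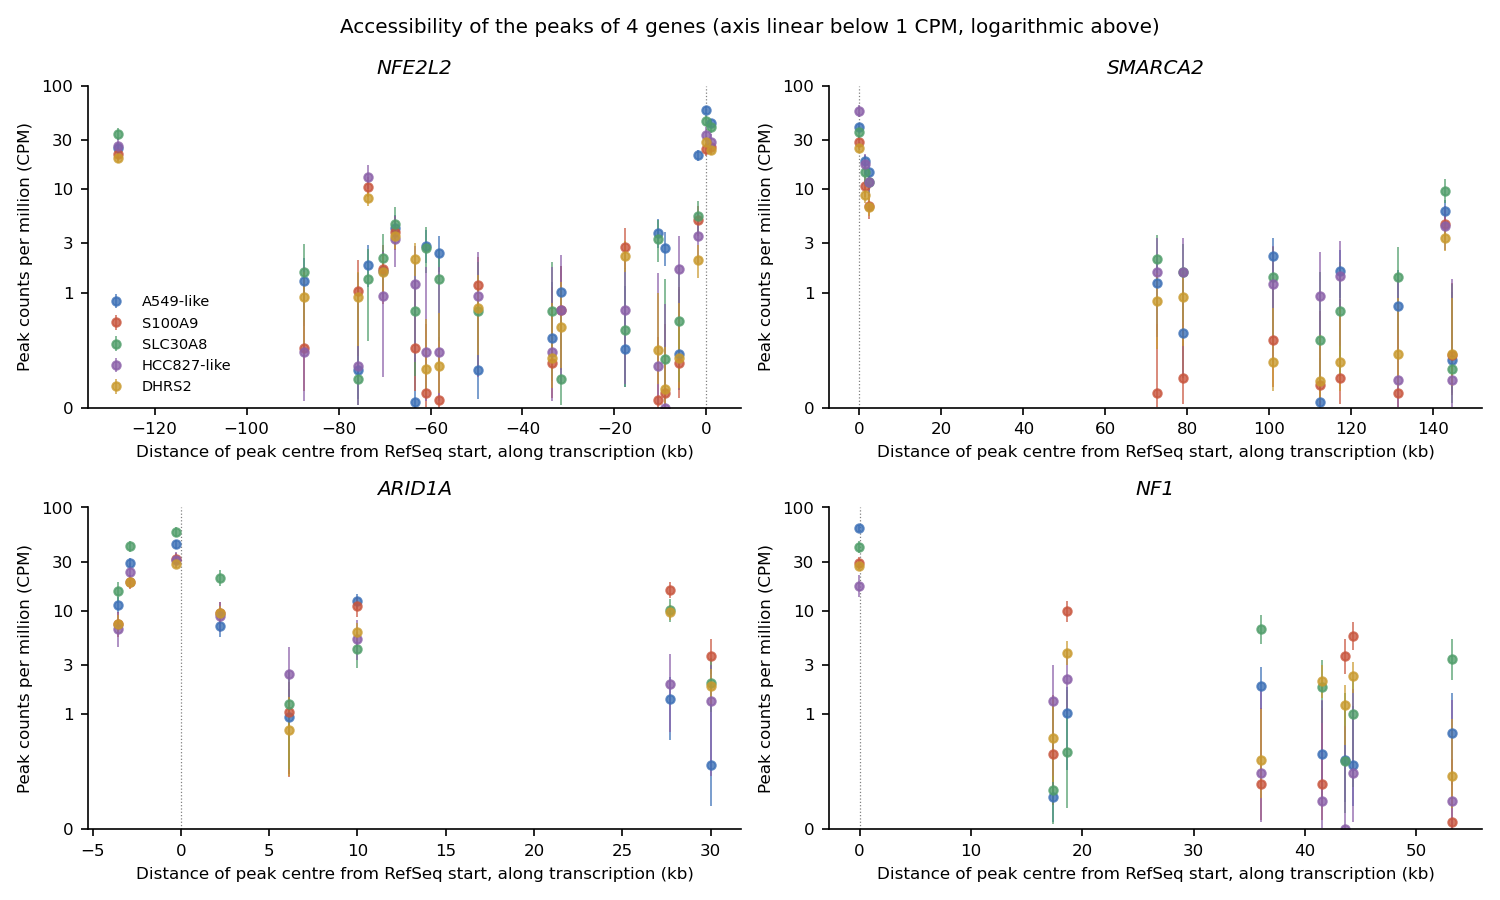
Peak level in CPM (y axis, linear below 1 and logarithmic above) against the distance of the peak centre from the first RefSeq start (x axis, kb, negative upstream) for the peaks of 4 genes, with 95% Poisson intervals and 1 colour per line. NFE2L2 peak 3, just upstream of the start, stood out in the A549-like line at 21.3 CPM, and peaks away from starts mostly lay under 10 CPM.

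Accessibility at several starts differed in the same direction as the surrounding chromosome. Other peaks within 500 kb of SMARCA2 were together 1.65 times the mean of the other lines in the HCC827-like line and 0.66 times in the DHRS2 line, and those around ARID1A were 1.58 times in the SLC30A8 line, where 10 of 19 measured neighbouring genes were also 2-fold higher in RNA, against 13.1% of all genes. Around NF1 and STK11 the HCC827-like line was at 0.69 and 0.65 times. KEAP1 and SMARCA4 lie within 500 kb of each other, and around them the A549-like line was at 0.67 and 0.69 times. Set against these surroundings, the log2 ratio at the SMARCA2 start differed from its region by 0.10 in the HCC827-like line and the ARID1A start by 0.11 in the SLC30A8 line, while the NF1 start was still 0.88 above its region in the A549-like line and differed by -0.61 in the HCC827-like line. DNA copy number was not measured, and its part in these values was not tested.

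Of 43 other measured genes within 500 kb of STK11, 9 were 2-fold higher in the S100A9 line, against 8.77% of all genes, and 7 were lower, with a median log2 ratio of 0.16. Among the nearest, GPX4 and ATP5F1D were at 104 and 81.5 CPM in the S100A9 line, each at a log2 ratio of 1.14 over the other lines, and CBARP at 5.23 CPM and a ratio of 1.51. Other peaks within 500 kb of STK11 were at 0.94 times in that line. Of 35 other measured genes within 500 kb of SMARCA4, 11 were 2-fold lower in the A549-like line, against 17.0% of all genes, and none was higher. Beside SMARCA4, YIPF2 was at 9.94 CPM in the A549-like line, a ratio of -1.95. Beside ARID1A, RPS6KA1 was at 17.9 CPM in the SLC30A8 line, a ratio of 1.34.

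Genes with the most similar profile over the 5 lines were sought among 13226 genes with at least 200 UMIs. They were IFNGR2, CAPG and P4HB for STK11, RIPOR1, NUCB1 and PSMD4 for KEAP1, and ERMARD and SDE2 for NFE2L2. They were ZNF561, PTPN14 and GMIP for SMARCA4, AL118511.1, RTKN and BARD1 for SMARCA2, AFG1L, C1orf159 and FTO for ARID1A, and AC007130.1, ARHGEF11 and CAPN7 for NF1. The smallest distance on centred log2(CPM + 1) was 0.057, between NF1 and AC007130.1. With 5 points per profile and many genes searched, close profiles are to be found for most genes, and nothing is read from them.

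The genes around each of the 7 were then counted by list. Over all genes, the share at least 2-fold higher was 12.6% in the A549-like line, 8.77% in the S100A9 line, 13.1% in the SLC30A8 line, 6.85% in the HCC827-like line and 4.15% in the DHRS2 line. The share at least 2-fold lower was 17.0% in the A549-like line, 19.6% in the S100A9 line, 19.7% in the SLC30A8 line, 17.5% in the HCC827-like line and 8.76% in the DHRS2 line. The median log2 ratio of all genes lay between -0.30 in the HCC827-like line and -0.0026 in the A549-like line.

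NRF2 targets were high in the A549-like line and low in the HCC827-like line. In the A549-like line 16 of 30 were 2-fold higher and 1 lower, with a median log2 ratio of 1.24. In the HCC827-like line none was higher and 27 of 30 were lower, with a median of -1.93. The S100A9 line had 7 higher and 6 lower (median 0.42), the SLC30A8 line 2 higher and 14 lower (median -0.91), and the DHRS2 line 1 higher and 10 lower (median -0.66). In the same-cluster selection the DHRS2 line had 24 of 30 lower, against 15.6% of all genes in that selection, with a median of -1.78. AKR1B10, a reductase of aldehydes, was at 805 CPM in the A549-like line, against 4.29 to 30.8 CPM in the others, and GPX2, a glutathione peroxidase, at 110 CPM, against 1.61 to 17.6 CPM. The lower counts of the other lines depend in part on such high A549-like values, which enter the mean of each. AKR1B10 was second highest in the DHRS2 line, at 30.8 CPM, yet its log2 ratio there was -2.75. ALDH3A1, an aldehyde dehydrogenase, led in the S100A9 line instead, at 279 CPM, against 150 CPM in the A549-like line and 3.40 to 60.9 CPM in the others. It was not alone: several more of the 30 targets were highest in the S100A9, SLC30A8 or DHRS2 line. AKR1C1, AKR1C2 and AKR1C3 share sequence and are uncertain one by one. NFE2L2 RNA itself ranged over 1.88-fold in the main assignment.

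Among 10 partners of KEAP1 and NRF2, 4 were 2-fold higher in the S100A9 line: SQSTM1, a KEAP1-binding autophagy receptor, at 749 CPM against 244 to 489 CPM in the others, BACH1, a repressor at the same DNA element, at 674 CPM against 108 to 375 CPM, NFE2L1, a relative of NFE2L2, at 285 CPM against 49.0 to 119 CPM, and the small MAF gene MAFF at 13.6 CPM against 2.65 to 6.34 CPM. In the HCC827-like line 4 were lower, among them MAFG at 23.9 CPM, against 46.9 to 104 CPM in the others. MAFK was highest in the A549-like line, at 48.6 CPM, against 6.04 to 30.9 CPM in the others. The A549-like line had 1 higher and 3 lower, the SLC30A8 line none higher and 1 lower, and the DHRS2 line 1 of each. The DHRS2 line had 1 higher and 4 lower in the same-cluster selection, with BACH1 at 63.4 CPM, SQSTM1 at 150 CPM and MAFG at 25.8 CPM.

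Of a list of 16 genes tied to loss of LKB1 activity, 14 were measured, and 10 were 2-fold higher in the A549-like line and none lower, with a median of 1.86. The list holds CPS1, FGA and MUC5AC, which also served as A549 markers, so it is not independent of that line's name. Without them 7 of 11 were higher and none lower, with a median of 1.33. PDE4D, a cyclic AMP phosphodiesterase, was at 10322 CPM in the A549-like line, against 97.5 to 1198 CPM in the others, and TESC, a calcium-binding protein gene, at 105 CPM, against 1.31 to 5.72 CPM. In the HCC827-like line 11 of 14 were lower, in the SLC30A8 line 8, in the S100A9 line 7 and in the DHRS2 line 5. With TMM scaling the count in the HCC827-like line was 7. Without the 3 markers, 8 of 11 were lower in the HCC827-like line, 5 in the SLC30A8 line, 5 in the S100A9 line and 4 in the DHRS2 line. These counts depend on the high A549-like values: PDE4D was second highest in the SLC30A8 line, yet its log2 ratio there was -1.28. Of 23 measured genes of the LKB1 kinase pathway, 3 were higher and 4 lower in the A549-like line, none higher and 8 lower in the S100A9 line, and 5 higher and 2 lower in the SLC30A8 line. The HCC827-like line had 2 higher and 3 lower and the DHRS2 line none higher and 5 lower. CRTC3, a CREB coactivator restrained by LKB1-dependent kinases, was at 353 CPM in the SLC30A8 line, against 29.5 to 165 CPM in the others. NUAK2, a kinase that LKB1 activates, was at 57.4 CPM in the A549-like line, against 4.25 to 20.9 CPM, and MARK1, another, was at 68.1 CPM in the SLC30A8 line and 47.5 CPM in the HCC827-like line, against 1.77 to 4.83 CPM in the other 3.

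Of 24 other SWI/SNF subunit genes measured, 4 were higher and 1 lower in the A549-like line, 1 and 4 in the S100A9 line, 3 and 1 in the SLC30A8 line, none and 2 in the HCC827-like line and 1 and none in the DHRS2 line. With TMM scaling none was higher in the A549-like line, against 9.66% of all genes, and 1 in the SLC30A8 line, against 10.6%, so most of these lay close to the threshold. DPF3, a histone-reading subunit, was the widest, at 19.7 CPM in the DHRS2 line, against 0.221 CPM in the A549-like line and 0.980 to 6.08 CPM in the others, and it was at 35.0 CPM in the same-cluster DHRS2 barcodes. SS18L1 was at 84.7 CPM in the SLC30A8 line, against 11.6 to 34.8 CPM in the others. SMARCC1, a core subunit, was at 445 CPM in the SLC30A8 line, against 127 to 259 CPM, and PHF10 at 58.8 CPM in the S100A9 line, against 17.7 to 29.2 CPM.

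The other regulators of RAS and chromatin differed less. Of 10 genes of RAS GTPase-activating proteins and SPRED proteins, the partners of NF1, 1 was higher, in the HCC827-like line: RASAL2, at 1095 CPM, against 186 to 896 CPM in the others. None was higher there in the same-cluster selection, with RASAL2 at 1117 CPM in the HCC827-like line and 1091 CPM in the DHRS2 line. Lower were 1 in the A549-like line, 1 in the S100A9 line and 2 in the SLC30A8 line. Of 11 further chromatin and RNA regulators mutated in lung adenocarcinoma, SETD2, a histone methyltransferase, and MGA, a partner of MAX, were 2-fold higher in the SLC30A8 line, at 353 and 226 CPM, against 101 to 204 CPM and 75.3 to 148 CPM in the others, and SETD2 was 2-fold lower in the S100A9 line. With TMM scaling none of the 11 was higher in the SLC30A8 line and none lower in the S100A9 line.

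**Figure D5:**
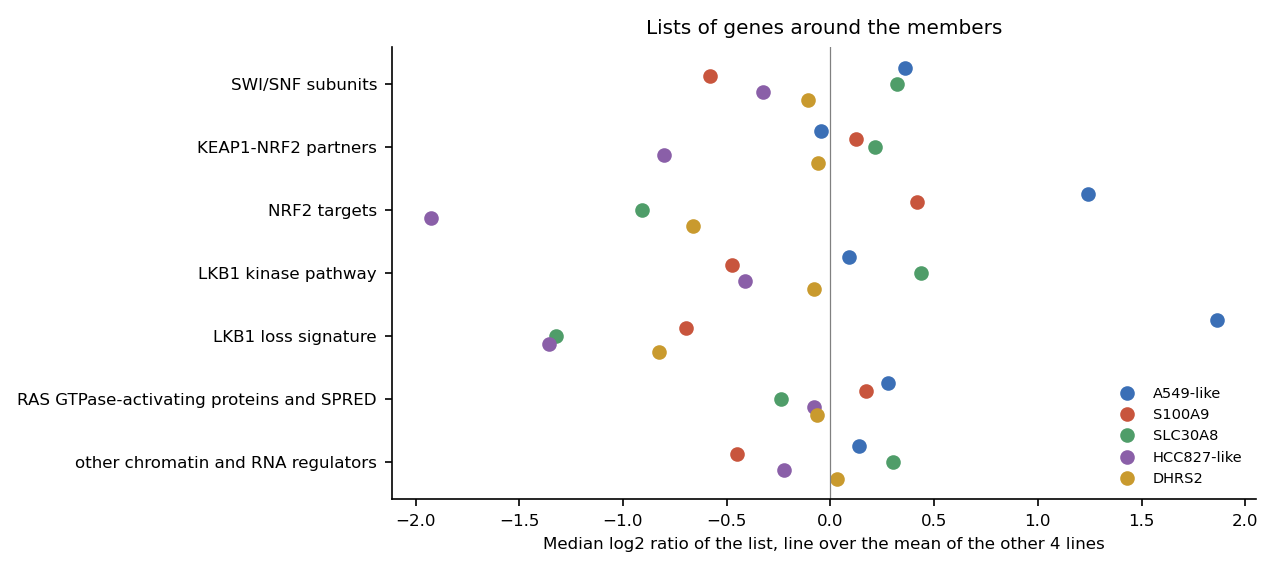
Median log2 ratio (x axis) of each list of genes (rows) in each line over the mean of the other 4 lines, with 1 point per line. NRF2 targets spread from -1.93 in the HCC827-like line to 1.24 in the A549-like line, and the signature of LKB1 loss reached 1.86 in the A549-like line, or 1.33 without the 3 genes that also mark that line.

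Markers of other cell types were checked, since the capture should hold cancer cells alone. Immune markers summed to 4.83 to 17.7 CPM and endothelial markers to 1.99 to 97.4 CPM, nearly all of the latter PECAM1 at 96.9 CPM in the S100A9 line. CD3E, LYZ, VWF, CDH5 and DCN had under 20 UMIs each. Fibroblast markers summed to 161 CPM in the DHRS2 line and 135 CPM in the S100A9 line, against 5.74 to 9.82 CPM in the other 3, almost all from COL1A1 and COL1A2. The nuclear RNAs MALAT1 and NEAT1 ranged over 1.56-fold and 1.99-fold between the lines, and NEAT1 over 2.08-fold in the same-cluster selection. The part of these differences in the results was not tested.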

How the data were processed

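RNA and ATAC were read from the same barcodes of 1 capture of 5 mixed lines. The authors' tool for the single matrix that holds both libraries was Cell Ranger ARC 2.0.0, with the GRCh38 build, per the submitters' processing notes. The deposited values are whole-number counts, UMIs per gene and cut counts per peak, with no normalisation. Also deposited are positions, per the file headers: a gene entry covers its annotated starts, and a peak its width. How cells and peaks were called, which annotation served and whether strand was used is not given in the sources used here, so genes that overlap on opposite strands cannot be told apart. Of the non-zero peak entries 83.5% were even and 62.6% equal to 2, and peak intervals rest on each count divided by 2.

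Barcodes were kept with at least 1000 UMIs, 500 genes and 1000 peak counts and at most 20% mitochondrial UMIs. The highest Scrublet scores (scanpy 1.11.5) were removed at 0.8% per 1000 barcodes. Leiden clusters of the ATAC counts (30 components, 20 neighbours, the first left out for its correlation with depth) gave 5 clusters at resolution 0.15, and of the RNA at 0.1. Each barcode was also called by Poisson likelihood over the 46 markers, with a margin of 3 natural log units. Counts were summed per line and scaled to CPM, and log2 ratios were taken of CPM + 1 against the mean of the other 4 lines, which understates ratios of low features. A gene needed 20 UMIs, and a peak 100 counts, over all lines to be measured. In all, 38069220 UMIs and 87036004 peak counts were used. The ratio was tested on simulated data. TMM factors came from edgeR 4.0.16 in R 4.3.3. UMIs and cuts are not independent cells, and intervals cover counting error only.

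The 7 genes, the line markers and the gene lists were chosen with earlier results of these data known. Genes named besides the 7 are, per gene, the 3 closest profiles and the nearest 2 gene starts on either side, and per list those with the largest ratio of highest to lowest line; some genes that this rule names are not reported here. Alternatives changed the line assignment, the filters, the scaling, the pseudocount and the peak window. Promoter sequences are RefSeq's, and peak and protein sequences were not used here.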

Additional observations from a re-analysis of the deposited data

How the results depend on the processing

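Over the alternatives, the pairs of a gene and a line at least 2-fold higher numbered between 1 and 3 (2 as reported) and those lower between 1 and 6 (3 as reported). The higher count was 1 with the marker call alone, RNA clusters alone, barcodes of 3% to 20% mitochondrial UMIs, Scrublet barcodes kept and TMM scaling. The lower count was 1 with the marker call alone, 6 under 3% mitochondrial UMIs and 5 from 3% to 20%. Under 3% the median log2 ratio of all genes in the S100A9 line was -1.39, against -0.26 in the main assignment. For most alternatives the share over all genes or peaks is not given. The counts in this section are therefore not read as results about the 7 genes. For peaks, reported at 11 higher and 19 lower, the higher count was 17 with RNA clusters alone, 22 under 3% mitochondrial UMIs, 17 in the same-cluster selection and within its barcodes of 3% to 20%, and 19 with a pseudocount of 0.1 CPM. The lower count was 12 with the marker call alone, 40 under 3%, 30 in the same-cluster selection under 3%, and 31 with a pseudocount of 0.1 CPM. Only 5 barcodes of the S100A9 line lay under 3% in the main assignment, against 52 in the same-cluster selection. In the main assignment under 3%, the ratio turned over for NF1 peak 6 in the S100A9 line (-0.38). It also did so for NF1 peak 7 in the A549-like line (0.15) and the S100A9 line (-0.57). From 3% to 20% it turned over for NFE2L2 peak 12 in the A549-like line (-0.10). In the same-cluster selection under 3%, NF1 peak 6 in the S100A9 line stayed at 0.76. The causes were not tested. TMM scaling shifted the median over all genes, as log2, by -0.17 in the A549-like line, 0.11 in the S100A9 line, -0.14 in the SLC30A8 line, 0.13 in the HCC827-like line and 0.08 in the DHRS2 line. No paired analysis was possible because there is 1 library of each kind. Depth limits the peaks away from starts most, many of which had too few counts to be measured.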
